A study of Mus musculus with 126 samples.

Results

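Genes whose symbols begin with Tex and a digit were named for transcripts found in the testis. They were picked here by name alone, as every gene of the RNA-seq count table whose symbol is Tex followed by a number, which gave 28 of 23420 genes. The name marks where a transcript was first seen and not a shared ancestry or function, so the group holds meiotic and sperm proteins beside proteins made in most cells. For 18 of the 28 the counts were high enough for a test, against 15822 of all 23420 genes. The other 10 had at most 5 counts in any library: Tex35, Tex22, Tex33, Tex38, Tex37, Tex36, Tex29 and Tex24 had a few scattered counts, and Tex28 and Tex13a had 0 in all 8 libraries. A count of 0 allows up to 3 counts, or 0.183 to 0.243 on the normalised scale defined below, depending on the library.

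The libraries were made from ribosomal-RNA-depleted total RNA of mouse embryonic stem cells of strain J1, grown on gelatin in medium with serum and leukaemia inhibitory factor. Wild type (WT) cells and cells of the genotype Dnmt1-/-, Dnmt3a-/-, Dnmt3b-/- (triple knockout, TKO), which lack the DNA methyltransferases, were each given either 5 ng/µl Trichostatin A (TSA), an inhibitor of histone deacetylases, or 0.0033% DMSO, the solvent, for 36 h. Each of the 4 groups had 2 libraries, described by the submitters as biological replicates. The design lets each gene be compared between genotypes, between treatments and for both changes at once.

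Counts assigned to genes ranged from 13280631 to 15542527 per library. Levels below are normalised CPM, a gene's count per 1000000 counts of the library's total after scaling by its TMM factor. In all 4 TKO libraries Dnmt1, Dnmt3a and Dnmt3b were lower than in any WT library, with TKO means of 29.2%, 12.5% and 7.59% of the WT means in DMSO. All 7 stem cell markers checked (Pou5f1, Nanog, Sox2, Zfp42, Esrrb, Klf4 and Dppa4) were present in every group. Their summed level was 2483 to 2743 in WT DMSO, 1360.2 to 1545 in WT TSA, 3271 to 3609 in TKO DMSO and 1569 to 1854 in TKO TSA.

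As background, DNA methylation at CpG sites is copied at replication by Dnmt1 and laid down by Dnmt3a and Dnmt3b, and many germline genes carry methylation at CpG-rich promoters in cells outside the germline. Histone acetylation at promoters accompanies transcription, and deacetylases remove it. Germline proteins in this group act in transposon control (Tex19.1, Tex15), in meiotic chromosome pairing and recombination (Tex12, Tex11), in the bridges that join dividing germ cells (Tex14) and at the sperm surface (Tex101).

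Promoter sequence was taken from RefSeq on GRCm38.p6, where 23 of the 28 members were found, 2 of them through a synonym (Tex13 as Tex13b, Tex40 as Catsperz). Tex22, Tex24, Tex15, Tex11 and Tex13a were not matched. The windows ran from 250 bases before the start site to 50 after it. The 250 bases before the start are shown for the 5 matched members whose levels differed most between WT DMSO and TKO TSA, of which Tex19.1 and Tex19.2 are neighbouring copies. Each reads 5′ to 3′ on the gene's own strand, with CpG sites in capitals.
Tex12 (chr9:50561269-50561518, minus strand): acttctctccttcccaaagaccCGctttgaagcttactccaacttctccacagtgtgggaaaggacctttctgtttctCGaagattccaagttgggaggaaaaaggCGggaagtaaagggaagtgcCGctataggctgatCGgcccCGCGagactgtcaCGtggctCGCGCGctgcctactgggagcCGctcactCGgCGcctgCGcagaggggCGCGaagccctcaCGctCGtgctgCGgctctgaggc
Tex101 (chr7:24672051-24672300, minus strand): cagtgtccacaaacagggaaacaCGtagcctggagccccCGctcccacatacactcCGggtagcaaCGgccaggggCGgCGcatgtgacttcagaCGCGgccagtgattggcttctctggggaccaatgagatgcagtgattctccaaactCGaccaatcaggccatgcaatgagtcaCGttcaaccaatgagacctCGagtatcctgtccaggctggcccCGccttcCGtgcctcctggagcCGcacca
Tex13 (chrX:140813434-140813683, minus strand): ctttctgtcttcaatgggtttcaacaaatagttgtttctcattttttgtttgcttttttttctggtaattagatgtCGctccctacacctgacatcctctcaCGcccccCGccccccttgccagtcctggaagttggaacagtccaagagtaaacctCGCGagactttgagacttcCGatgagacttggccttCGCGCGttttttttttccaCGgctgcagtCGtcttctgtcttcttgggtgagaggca
Tex19.1 (chr11:121145893-121146142, plus strand): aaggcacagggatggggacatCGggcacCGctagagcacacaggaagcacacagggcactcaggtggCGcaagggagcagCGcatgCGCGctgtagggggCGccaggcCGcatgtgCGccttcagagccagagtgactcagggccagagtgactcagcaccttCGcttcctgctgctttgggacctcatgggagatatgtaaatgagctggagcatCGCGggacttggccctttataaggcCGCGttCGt
Tex19.2 (chr11:121118678-121118927, minus strand): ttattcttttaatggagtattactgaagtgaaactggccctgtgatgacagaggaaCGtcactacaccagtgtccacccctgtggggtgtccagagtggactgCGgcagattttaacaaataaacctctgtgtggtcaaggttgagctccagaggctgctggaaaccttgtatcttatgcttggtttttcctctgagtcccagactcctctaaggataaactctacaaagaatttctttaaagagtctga
Within the whole window Tex12 held 26 CpG sites, Tex101 19, Tex19.1 16, Tex13 13 and Tex19.2 only 2. The median of all 32851 RefSeq windows was 7 CpG sites, with quartiles of 3 and 20, and the median of the 23 matched members was 13.

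In the comparison of TKO with WT cells in DMSO, 7 members were higher in TKO and 1 was lower among the 18 tested. Called here means an adjusted p below 0.05 in edgeR's quasi-likelihood test with Benjamini-Hochberg adjustment over all tested genes. Of all tested genes, 9.63% were called higher and 10.7% lower in that comparison. The 7 were Tex12, Tex101, Tex19.1, Tex264, Tex2, Tex14 and Tex15, and the 1 lower was Tex21. The median log2 fold change was 0.62 over the tested members and -0.01 over all tested genes. These counts depended on single libraries. Without WT DMSO replicate 1 only Tex2 and Tex264 were called, and without TKO DMSO replicate 2 only Tex2, Tex19.1, Tex12 and Tex264. The number called among all genes fell from 3221 to 1703 and 1458 in the same fits, in which 1 library stands for its group and is assumed to vary like the others.

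With TSA in WT cells 7 members were higher and 1 lower, against 27.0% and 25.9% of all tested genes. The 7 were Tex13, Tex19.2, Tex101, Tex15, Tex19.1, Tex16 and Tex2, and the 1 lower was Tex10. The members' median log2 fold change was 0.73 beside 0.01 for all genes. Scaling to library totals alone raised the median of all genes by TSA in WT to 0.22 and gave 14 members higher and 0 lower. Under upper quartile scaling that median was 0.16, with 12 members higher and 0 lower. Calls among all tested genes moved upward as well, from 4266 higher and 4092 lower with TMM scaling. They were 5812 and 2433 under library totals and 5365 and 2794 under upper quartiles. The 7 members named as higher were called under each of the 3 other scalings tried and with each library left out.

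In TKO cells TSA raised 10 members and lowered 1, against 30.8% and 27.9% of all tested genes. Tex21, Tex261 and Tex11 joined the 7 that rose in WT, and Tex10 was again the 1 that fell. Under TSA, 8 members were higher in TKO than in WT and 0 were lower, against 10.0% and 8.38% of all tested genes. Those 8 were Tex13, Tex19.2, Tex12, Tex101, Tex19.1, Tex16, Tex264 and Tex15. Leaving out WT TSA replicate 1 or TKO TSA replicate 2 left only Tex13, Tex19.2 and Tex19.1, while calls among all genes fell from 2910 to 941 and 1356.

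With both changes together, TKO cells with TSA against WT cells with DMSO, 12 members were higher and 1 lower, against 31.7% and 30.2% of all tested genes. Scaling to library totals gave 14 higher and 0 lower. Among all tested genes that scaling moved the calls from 5015 higher and 4778 lower to 6064 higher and 3542 lower. The median log2 fold change of the members was 0.93 beside 0.00 for all genes.

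**Figure D1:**
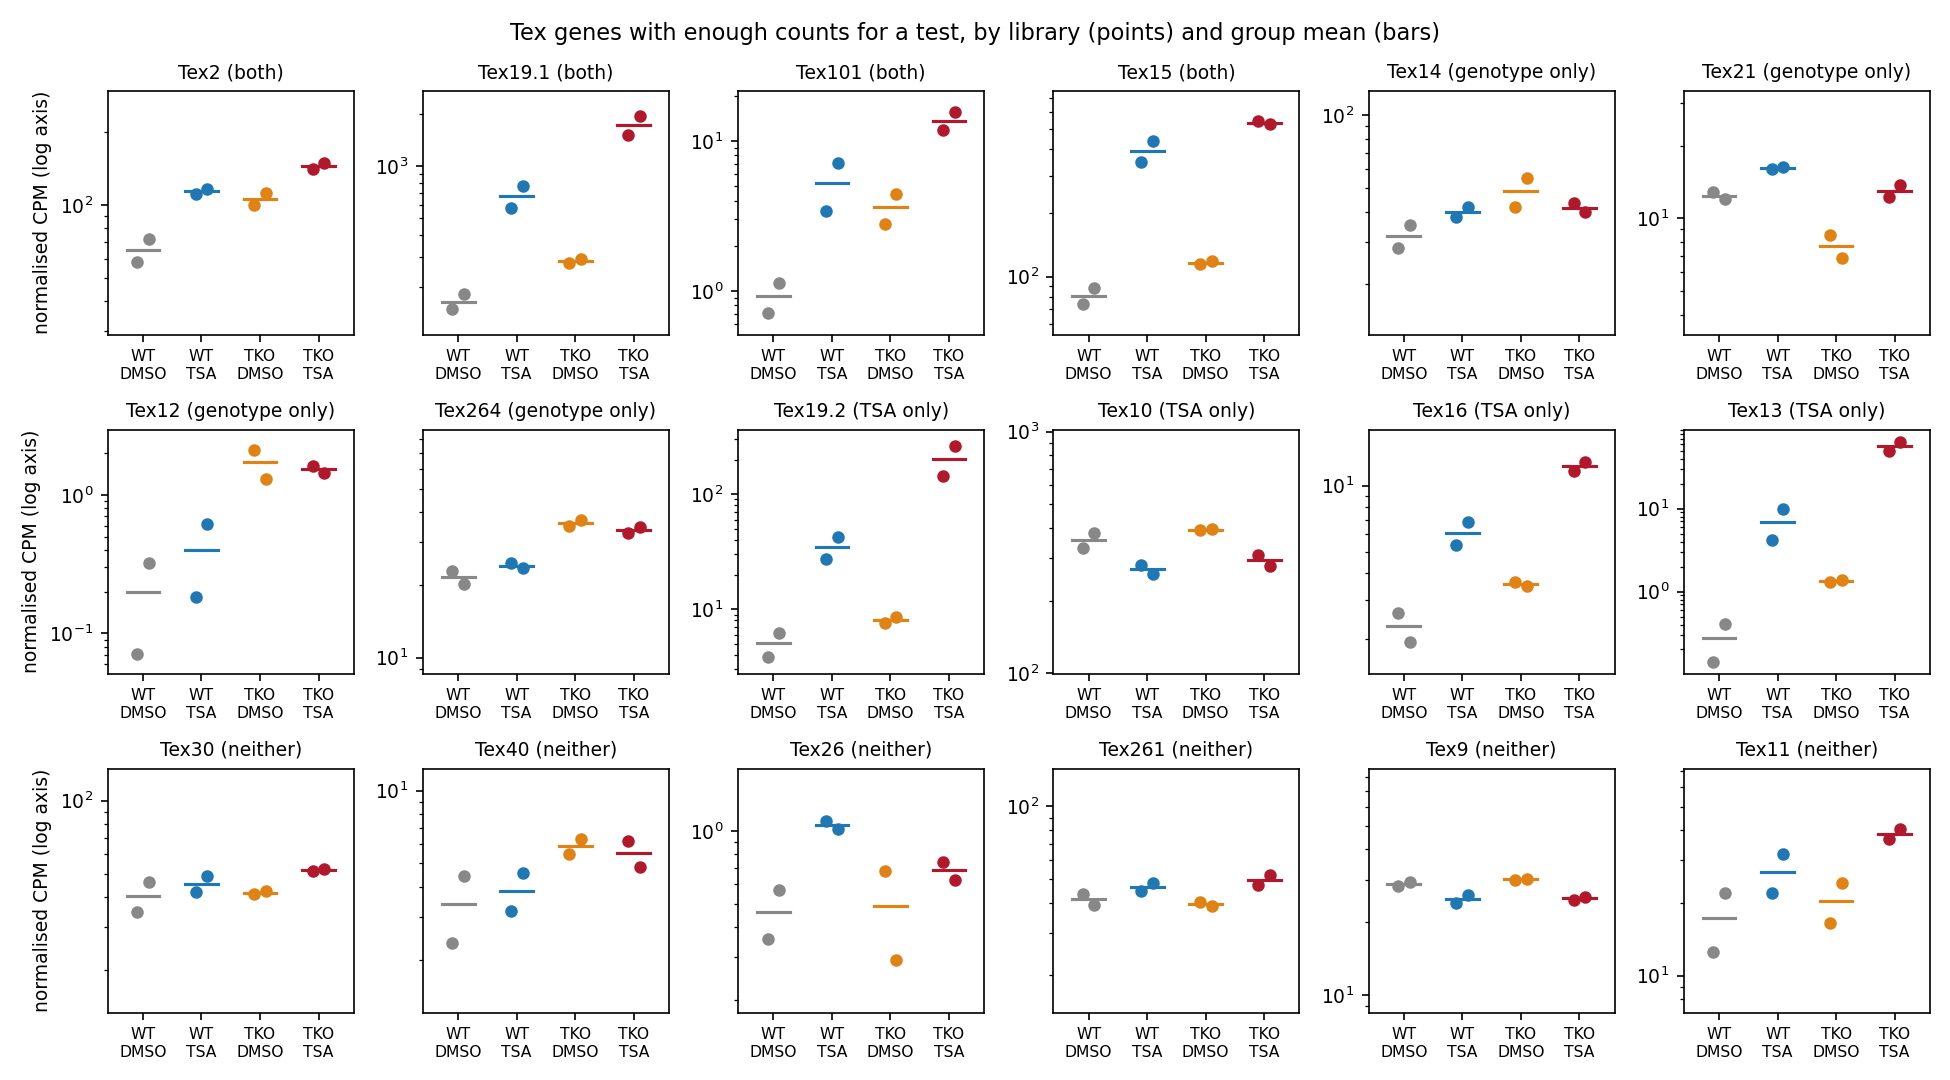
Normalised CPM (log axis, scaled separately for each gene) of the 18 tested Tex genes in each of the 8 libraries, points, with group means as bars; the word after each symbol is the response class by the calls for TKO in DMSO and TSA in WT. Both TKO TSA libraries of Tex13, Tex19.2, Tex19.1, Tex101, Tex16, Tex2, Tex15, Tex11 and Tex30 lie above all 6 other libraries. The share of all tested genes with such a separation is not given.

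Sorting each member by the calls for genotype alone (in DMSO) and TSA alone (in WT) gave 4 that responded to both, 4 to genotype only, 4 to TSA only and 6 to neither. Both comparisons use the same WT DMSO libraries, so their calls are not independent of each other. The shares of all tested genes in those classes were 11.6%, 8.80%, 41.3% and 38.4%. The 4 that responded to both, Tex2, Tex19.1, Tex101 and Tex15, were higher in each. Genotype only held Tex14, Tex12 and Tex264, higher in TKO, and Tex21, lower. TSA only held Tex19.2, Tex16 and Tex13, higher, and Tex10, lower. Tex30, Tex40, Tex26, Tex261, Tex9 and Tex11 were called for neither. With single libraries left out the classes ranged from 1 to 5 for both, 1 to 4 for genotype only, 2 to 7 for TSA only and 3 to 9 for neither. The fit without WT DMSO replicate 1 gave 1, 1 and 7 for the first 3 of these, that without TKO DMSO replicate 2 gave 2 for both and 2 for genotype only, that without WT TSA replicate 2 gave 2 for TSA only, and that without WT DMSO replicate 2 gave 3 for neither. Scaling to library totals moved the classes to 7 for both, 1 for genotype only, 7 for TSA only and 3 for neither. The shares of all tested genes in the classes are not given for these refits. Whether such moves are particular to the members was not tested.

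The classes can also be read more broadly. Taking a call in either genotype comparison and either TSA comparison moved Tex19.2, Tex16, Tex13 and Tex21 to both, which then held 8 members, and left 3 for genotype only (Tex14, Tex12, Tex264), 3 for TSA only (Tex10, Tex261, Tex11) and 4 for neither (Tex30, Tex40, Tex26, Tex9). Of all tested genes, 23.4% fell in both on that reading, 6.19% in genotype only, 44.8% in TSA only and 25.7% in neither. Tex12, Tex14 and Tex264 were genotype only on both readings in the fit reported here. Tex14 and Tex264 were also called for TSA in WT under library totals (edgeR adjusted p = 0.0138 and 0.0326). For Tex14 that call appeared in other settings too, given with the gene below and in the closing section.

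**Figure D2:**
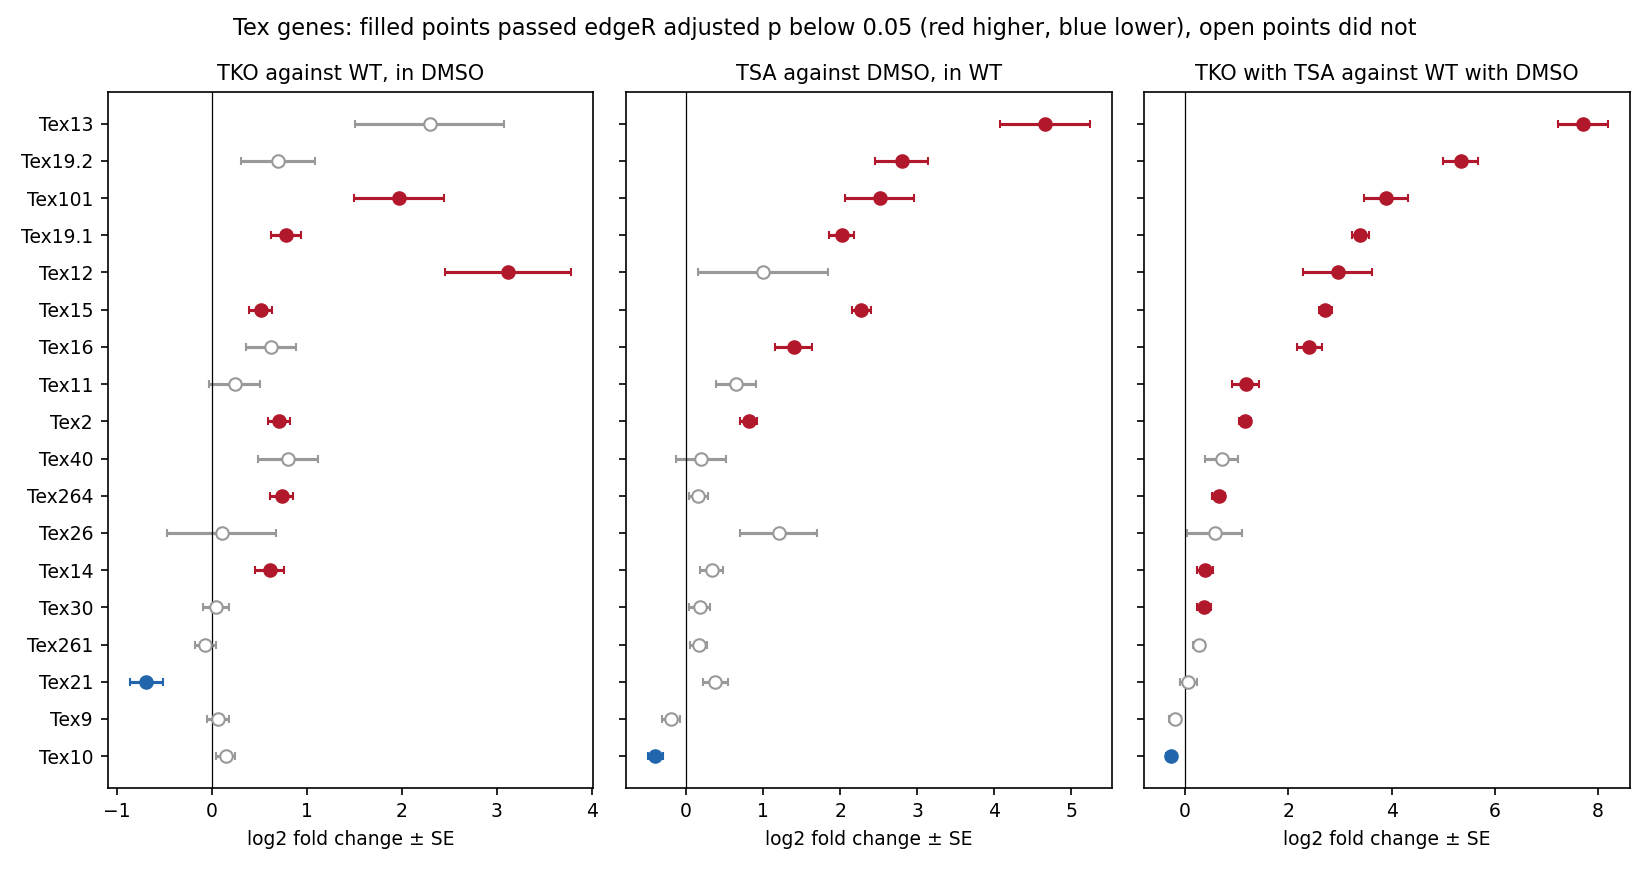
log2 fold changes with their standard errors for the 18 tested Tex genes, from 1 edgeR fit of 8 libraries, ordered by the change with both together; filled points passed adjusted p below 0.05 (red higher, blue lower). Among these panels Tex12 had the highest value for TKO in DMSO, 3.12, and Tex13 for TSA in WT, 4.65.

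Markers of other cells moved with these groups. The summed level of 8 markers of two-cell-like cells, a rare state in stem cell cultures, was 14.3 to 16.2 in WT DMSO, 173 to 314 in WT TSA, 9.37 to 12.1 in TKO DMSO and 401 to 534 in TKO TSA, with each marker counted in some library. For 10 markers of primordial germ cells or spermatogonia the sums were 109 to 140 in WT DMSO, 162 to 195 in WT TSA, 300.4 to 343 in TKO DMSO and 443 to 445 in TKO TSA, with Nanos2 at 0 counts in 7 of 8 libraries. Dazl carried much of this sum, with group means of 10.4, 42.0, 141 and 263 in the same order, while with TSA in TKO the means of Prdm14 went from 34.7 to 4.64, of Ddx4 from 19.0 to 7.97 and of Prdm1 from 50.2 to 29.7. Among 9 spermatid markers, 8 had at most 10 counts in every library, and Prm1 and Acrv1, which encode a protamine and an acrosome protein, had 0. The spermatid sum nevertheless went from 0.285 to 0.324 in WT DMSO to 8.79 to 9.85 in TKO TSA, of which Spaca1 made up a mean of 8.49. The spermatocyte sum, over 8 markers, was 36.7 to 56.6 in WT DMSO, 80.6 to 93.3 in WT TSA, 41.2 to 51.9 in TKO DMSO and 88.9 to 102 in TKO TSA. Hspa2 carried much of this rise, with means of 11.1, 37.9, 9.65 and 36.0 in the same order. Sycp1 and Ldhc also rose with TSA, while Sycp3 went from 18.0 to 17.5 in WT and from 11.9 to 12.2 in TKO. The trophoblast sum, over 5, was 41.0 to 44.1, 163 to 181, 38.7 to 55.4 and 247 to 249.5 in the same order. Tfap2c carried much of it, with means of 38.1, 124, 43.7 and 203. Cdx2 rose with TSA in each genotype but was lower in TKO TSA (6.05) than in WT TSA (23.1). In WT cells the sum of 6 Sertoli cell markers was 57.9 to 102 with DMSO and 52.1 to 72.8 with TSA. In TKO cells it was 95.9 to 135 with DMSO and 197 to 248 with TSA, the highest group. Rhox5 carried most of this rise, with means of 40.9, 39.7, 72.9 and 183 in the order just given. Between the first and last of these groups Dmrt1 fell from 34.7 to 30.2 and Amh from 0.514 to 0.200. Gata4 rose from 3.79 to 5.76, Cldn11 from 0.117 to 3.03 and Sox9 from 0.0405 to 0.389. The 6 Leydig cell markers summed to 5.67 to 5.85 with DMSO and 10.1 to 10.7 with TSA in WT, and to 6.43 to 7.56 and 10.7 to 12.6 in TKO, higher with TSA in both genotypes. For 5 endoderm markers the WT sums were 5.42 to 7.21 and 8.73 to 11.1, and the TKO sums 18.1 to 19.5 and 24.8 to 27.2. Sox17 carried the rise with TSA in TKO, with means of 3.40 and 13.6, and Foxa2 went from 1.23 to 1.62. Gata6 fell there from 5.26 to 4.00, Gata4 from 6.81 to 5.76 and Sox7 from 2.11 to 0.973. For 8 mesenchyme markers the sums were 507 to 832 and 458 to 693 in WT, and 243 to 323 and 233 to 275 in TKO, the lower genotype. The part these markers' cells have in the Tex values was not tested, and in bulk RNA a change in the number of expressing cells and a change in RNA per cell cannot be told apart.

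Among the transposon-control members the 2 Tex19 genes rose with TSA in both genotypes. Tex19.1 (chr11:121146143-121148313, plus strand, coordinates as in the count table on mm10) encodes a mammal-specific protein of germ cells, placenta and stem cells that restrains retrotransposons. Its WT libraries read 148 and 182 with DMSO and 574 and 764 with TSA, and its TKO libraries 276 and 291 with DMSO and 1510.1 and 1956 with TSA. The groups did not overlap and stood in that order, WT DMSO lowest, then TKO DMSO, WT TSA and TKO TSA. In edgeR's test TSA raised it 4.06-fold in WT (log2 2.02 ± 0.16 SE, adjusted p = 1.24e-05) and 6.12-fold in TKO (2.61 ± 0.16, adjusted p = 1.59e-06). Genotype raised it 1.72-fold in DMSO (0.78 ± 0.16, adjusted p = 0.00567) and 2.59-fold under TSA (1.37 ± 0.16, adjusted p = 0.000288), the DMSO value being 0.62 with adjusted p = 0.0585 without WT DMSO replicate 1. Per kilobase of exon it ranked 928 of 23420 genes in WT DMSO and 16 in TKO TSA. It made up 18.4% to 19.3% of all counts on the 28 members in WT DMSO and 50.7% to 55.5% in TKO TSA.

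Tex19.2 (chr11:121116215-121118677, minus strand) is the rodent copy of Tex19.1, and the 2 genes face away from each other with 27465 bases and no other gene of the table between them. WT levels were 3.85 and 6.24 with DMSO and 27.1 and 42.6 with TSA, and TKO levels 7.59 and 8.66 with DMSO and 145 and 261 with TSA. All 4 groups were again apart, in the same order as for Tex19.1. TSA raised it 6.95-fold in WT (2.80 ± 0.34, edgeR adjusted p = 9.05e-05) and 25.0-fold in TKO (4.64 ± 0.32, adjusted p = 2.22e-06). The genotype value in DMSO, 0.70 ± 0.39, was not called (adjusted p = 0.232), while under TSA genotype raised it 5.84-fold (2.55 ± 0.27, adjusted p = 0.000211). Because the genes are close copies, reads could be split between them, and how such reads were counted is not given in the sources used here. For every 100 counts on Tex19.1 there were 2.60 and 3.44 on Tex19.2 in WT DMSO, 2.75 and 2.98 in TKO DMSO, 4.72 and 5.57 in WT TSA and 9.62 and 13.3 in TKO TSA. The ratio was thus highest in the 2 TKO TSA libraries.

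Tex15 (chr8:33570544-33585585, plus strand) encodes a large germ cell protein needed for meiotic repair and for silencing of transposons in fetal male germ cells. In the WT libraries its level was 74.4 and 88.1 with DMSO and 349 and 436 with TSA, and in the TKO libraries 114 and 118 with DMSO and 540.0 and 524 with TSA. TSA gave the larger changes, 4.83-fold in WT (2.27 ± 0.12, edgeR adjusted p = 2.31e-06) and 4.58-fold in TKO (2.20 ± 0.12, adjusted p = 1.02e-06). Genotype added 1.43-fold in DMSO (0.52 ± 0.12, adjusted p = 0.0114) and 1.36-fold under TSA (0.44 ± 0.12, adjusted p = 0.0225). The genotype call in DMSO was lost without WT DMSO replicate 1 (0.38, adjusted p = 0.0983) and without TKO DMSO replicate 1 or 2 (adjusted p = 0.0519 and 0.0791). The one under TSA was lost without WT TSA replicate 1 (0.29, adjusted p = 0.228) and without TKO TSA replicate 1 or 2 (adjusted p = 0.0804 and 0.0693).

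Other genes of the piRNA pathway and transposon silencing, 21 of them tested, had 10 higher and 2 lower in TKO against WT in DMSO. The shares of all tested genes were 9.63% and 10.7%, and the list's median log2 fold change was 0.89. The largest changes were in Asz1 (4.91), Fkbp6 (4.19), Gpat2 (2.82) and Tdrd1, which fell by 2.63. In WT cells TSA raised 11 and lowered 1, against 27.0% and 25.9% of all tested genes, with a median of 0.81. In TKO cells it raised 11 and lowered 5, against 30.8% and 27.9% of all tested genes. Tex19.1 and Tex15, which are not on that list, were higher in each of these comparisons.

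Of the meiotic members, Tex12 (chr9:50557148-50561268, minus strand) encodes a central element protein of the synaptonemal complex, the scaffold that holds paired chromosomes together. Its WT libraries read 0.0713 and 0.324 with DMSO and 0.183 and 0.611 with TSA, and its TKO libraries 2.12 and 1.31 with DMSO and 1.62 and 1.44 with TSA. Every TKO library was above every WT library, with or without TSA. The values rest on few reads: 5 counts in the WT DMSO group and 49 in TKO DMSO, a ratio of 9.11 with an exact 95% counting interval of 3.65 to 29.3. The genotype change was 3.12 ± 0.67 on the log2 scale in DMSO (edgeR adjusted p = 0.0075) and 1.96 ± 0.56 under TSA (adjusted p = 0.0335). The DMSO call was lost without WT DMSO replicate 1 (2.36, adjusted p = 0.0764) and without TKO DMSO replicate 1 (2.73, adjusted p = 0.0592). The one under TSA was lost in DESeq2 (adjusted p = 0.0988), without WT TSA replicate 1 (1.31, adjusted p = 0.263) and without TKO TSA replicate 1 or 2 (adjusted p = 0.104 and 0.0973). The TSA values, 1.00 ± 0.85 in WT and -0.17 ± 0.45 in TKO, were not called (adjusted p = 0.34 and 0.761), and at 5 and 12 counts in the WT groups a modest change could not be shown.

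Among 12 tested genes of the synaptonemal complex and chromosome axis, 6 were higher in TKO in DMSO and 0 lower. The shares of all tested genes were 9.63% and 10.7%, and the list's median was 0.70. Smc1b (2.40), Hormad1 (2.38), Hormad2 (1.58) and Syce1 (1.34) had the largest values. Syce2, whose product pairs with Tex12 in the central element, fell by 1.03 with TSA in WT cells. There the list had 6 higher and 3 lower, against 27.0% and 25.9% of all tested genes, and 6 and 1 under library totals.

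Tex11 (chrX:100838648-101059639, minus strand) encodes an X-linked protein that promotes meiotic crossovers. WT levels were 12.5 and 22.0 with DMSO and 21.9 and 31.9 with TSA, and TKO levels 16.4 and 24.2 with DMSO and 36.8 and 40.3 with TSA. Replicates differed widely in the first 3 groups. These groups overlapped one another, WT DMSO with WT TSA included. TSA raised it 1.90-fold in TKO (0.93 ± 0.26, edgeR adjusted p = 0.00946), a call lost without TKO DMSO replicate 1 (0.67, adjusted p = 0.1). The WT value of 0.65 ± 0.27 was not called (adjusted p = 0.059), so Tex11 is in the class of neither. It was called in DESeq2 (adjusted p = 0.0251), with all genes with a count (0.0228), under library totals (0.0202) or upper quartiles (0.0317), and without WT DMSO replicate 2 (1.10, adjusted p = 0.0086) or WT TSA replicate 1 (0.89, adjusted p = 0.0233). Of 17 tested meiotic recombination genes, 2 were higher and 1 lower in TKO in DMSO (11.8% and 5.88%), against 9.63% and 10.7% of all tested genes. With TSA in WT 5 were higher and 4 lower (29.4% and 23.5%), near the 27.0% and 25.9% of all tested genes.

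Tex14 (chr11:87405065-87555823, plus strand) keeps the intercellular bridges of germ cells open by binding Cep55 at the midbody. In the WT libraries its level was 28.4 and 35.2 with DMSO and 37.9 and 41.8 with TSA, and in the TKO libraries 41.9 and 55.3 with DMSO and 43.3 and 39.8 with TSA. WT DMSO was the lowest group, and the other 3 lay between 37.9 and 55.3. Genotype raised it 1.53-fold in DMSO (0.61 ± 0.15, edgeR adjusted p = 0.0161) but not detectably under TSA (0.06 ± 0.15, adjusted p = 0.819). TSA in WT gave 0.33 ± 0.15, which was not called (adjusted p = 0.0908) although the libraries did not overlap. It was called under library totals (adjusted p = 0.0138) or upper quartiles (0.0266) and without WT DMSO replicate 2 (0.48, adjusted p = 0.0433). Its genotype call in DMSO was lost without WT DMSO replicate 1 (adjusted p = 0.128) and without TKO DMSO replicate 2 (adjusted p = 0.171). Of 7 genes of the cytokinetic bridge, edgeR called 0 for genotype in DMSO, where it called 20.4% of all tested genes. The 3 that fell with TSA in WT were Cep55, Racgap1 and Ect2, by 0.47, 0.46 and 0.34. With TSA in WT 0 were higher and 3 lower, against 27.0% and 25.9% of all tested genes. That count depended on the scaling, with 1 higher and 2 lower under RLE size factors and 1 and 1 under library totals or upper quartiles, and the median moved from -0.28 to -0.07 under library totals.

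At the sperm surface, Tex101 (chr7:24668012-24672050, minus strand) encodes a lipid-anchored germ cell glycoprotein needed for sperm to migrate in the female tract. Its WT libraries read 0.713 and 1.13 with DMSO and 3.42 and 7.13 with TSA, and its TKO libraries 2.80 and 4.44 with DMSO and 11.8 and 15.5 with TSA. WT DMSO lay below and TKO TSA above all other libraries, and the 2 groups with a single change overlapped. Against WT DMSO it was 5.69-fold higher with TSA (2.51 ± 0.45, edgeR adjusted p = 0.000933), 3.92-fold higher in TKO (1.97 ± 0.47, adjusted p = 0.0132) and 14.8-fold higher with both (3.89 ± 0.42, adjusted p = 2.00e-05). The genotype call in DMSO was lost without WT DMSO replicate 1 (1.64, adjusted p = 0.112) and without TKO DMSO replicate 2 (1.61, adjusted p = 0.103). Under TSA genotype raised it 2.60-fold (1.38 ± 0.32, edgeR adjusted p = 0.0138), a call lost without WT TSA replicate 1 (0.93, adjusted p = 0.113) and without TKO TSA replicate 2 (1.17, adjusted p = 0.0919). Of 8 tested genes whose products work with Tex101 or with sperm surface proteins it helps mature, 2 were higher in TKO in DMSO. These were Dpep3 (3.58) and Ace (2.61), and 4 of the 8 were higher with TSA in WT, with 0 lower in either comparison. The shares of all tested genes higher in those comparisons were 9.63% and 27.0%. Tex40, an accessory subunit of the CatSper calcium channel of sperm, ran from 2.35 to 6.33 over the 8 libraries and was called in no comparison, though without WT DMSO replicate 2 its genotype value in DMSO passed (1.32, adjusted p = 0.024). The Tex40 value with both changes, 0.71 ± 0.32, was not called (edgeR adjusted p = 0.0709) but was under library totals and upper quartiles. Of 4 tested CatSper channel genes, 0 were called for genotype in DMSO by edgeR and 2 were higher with TSA in WT. The shares of all tested genes were 20.4% and 27.0%.

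On the X chromosome lie 5 of the 28 members, of which Tex11, Tex16 and Tex13 were tested. Tex13 (chrX:140808307-140813433, minus strand), named Tex13b in RefSeq, was at 0.143 and 0.405 with DMSO and 4.15 and 9.78 with TSA in the WT libraries, and at 1.30 and 1.38 with DMSO and 50.0 and 64.4 with TSA in the TKO libraries. It was the member with the widest span, from 7 counts over the WT DMSO group to 1765 over TKO TSA, a ratio of 216 with an exact 95% counting interval of 105 to 539. TSA raised it in WT by 4.65 ± 0.58 on the log2 scale (edgeR adjusted p = 0.000102) and in TKO by 5.41 ± 0.37 (adjusted p = 2.32e-06). Genotype raised it 8.28-fold under TSA (3.05 ± 0.30, adjusted p = 0.000126), and its value in DMSO, 2.30 ± 0.78, did not pass (adjusted p = 0.0603) although both TKO DMSO libraries were above both WT DMSO libraries. That value passed in DESeq2 (adjusted p = 0.0218), with all genes with a count (0.0165) or only the 2 groups compared (0.0153), and without WT TSA replicate 1 or 2 or TKO TSA replicate 2 (0.00787, 0.00749 and 0.0494), which would place Tex13 among the members that responded to both. These intervals cover counting error only.

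Tex16 (chrX:112093520-112127326, plus strand) was at 2.64 and 1.95 with DMSO and 5.37 and 6.79 with TSA in the WT libraries, and at 3.63 and 3.49 with DMSO and 11.6 and 12.9 with TSA in the TKO libraries. The 4 groups did not overlap and kept the order seen for Tex19.1. TSA raised it 2.63-fold in WT (1.39 ± 0.25, edgeR adjusted p = 0.000849) and 3.44-fold in TKO (1.78 ± 0.22, adjusted p = 6.03e-05). Genotype raised it 2.02-fold under TSA (1.01 ± 0.21, adjusted p = 0.00728), a call lost without WT TSA replicate 1 (0.85, adjusted p = 0.0848) and without TKO TSA replicate 2 (0.94, adjusted p = 0.0521). The DMSO value, 0.62 ± 0.26, was not called (adjusted p = 0.118). Its promoter window was the only one of the 16 matched among tested members without a CpG site.

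Tex2 (chr11:106502139-106612930, minus strand), a lipid-transfer protein of the endoplasmic reticulum, was at 58.1 and 72.0 with DMSO and 111 and 117 with TSA in the WT libraries, and at 100.1 and 112 with DMSO and 141 and 148 with TSA in the TKO libraries. WT DMSO was lowest and TKO TSA highest, and the 2 groups between them overlapped. TSA raised it 1.75-fold in WT (0.81 ± 0.11, edgeR adjusted p = 0.000216) and genotype 1.63-fold in DMSO (0.71 ± 0.11, adjusted p = 0.00166). Both calls held with each library left out. In TKO the TSA change was 0.45 ± 0.11 (adjusted p = 0.00519), and 0.36 without TKO DMSO replicate 1 (adjusted p = 0.0634).

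Tex264 (chr9:106658746-106685948, minus strand), a receptor that marks endoplasmic reticulum for autophagy, was at 22.8 and 20.3 with DMSO and 24.7 and 23.4 with TSA in the WT libraries, and at 34.9 and 37.2 with DMSO and 32.8 and 34.8 with TSA in the TKO libraries. Its TKO libraries all lay above its WT libraries, and treatment made little difference within a genotype. Genotype raised it 1.67-fold in DMSO (0.74 ± 0.12, edgeR adjusted p = 0.00177) and 1.40-fold under TSA (0.49 ± 0.12, adjusted p = 0.0163). The call under TSA was lost without WT TSA replicate 1 or 2 (adjusted p = 0.0834 and 0.0894) and without TKO TSA replicate 2 (adjusted p = 0.104). The TSA values were 0.16 ± 0.12 in WT (adjusted p = 0.297) and -0.09 ± 0.12 in TKO (adjusted p = 0.517). Of 8 other tested genes of this autophagy route, 1 was higher (Ccpg1, 1.14) and 1 lower (Rtn3, by 0.29) in TKO in DMSO. The shares of all tested genes were 9.63% and 10.7%.

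Tex21 (chr12:76198690-76246746, minus strand) was the 1 member lower in TKO. WT levels were 12.8 and 12.0 with DMSO and 16.0 and 16.3 with TSA, and TKO levels 8.55 and 6.84 with DMSO and 12.2 and 13.7 with TSA. The TKO DMSO group was lowest, and TKO TSA overlapped WT DMSO. Genotype lowered it in DMSO (-0.69 ± 0.17, edgeR adjusted p = 0.0166), a call lost without WT DMSO replicate 1 (adjusted p = 0.0746) and without TKO DMSO replicate 2 (adjusted p = 0.14). TSA raised it 1.68-fold in TKO (0.75 ± 0.17, adjusted p = 0.00306), and with both changes it was at 0.06 ± 0.17 (adjusted p = 0.758). Its TSA value in WT, 0.38 ± 0.16, was not called (edgeR adjusted p = 0.0707) but was under library totals and upper quartiles.

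Tex10 (chr4:48430956-48473422, minus strand) was the 1 member that fell with TSA. Its product works with Pelp1, Wdr18 and Senp3 in ribosome maturation and is known as a factor of stem cell self-renewal. In the WT libraries its level was 331 and 379 with DMSO and 280.5 and 257 with TSA, and in the TKO libraries 391 and 395 with DMSO and 308 and 279 with TSA. Each TSA library was below each DMSO library of either genotype. The change was -0.40 ± 0.10 in WT (edgeR adjusted p = 0.00577) and -0.42 ± 0.10 in TKO (adjusted p = 0.00357). In WT it was not called when scaled to library totals (-0.20, adjusted p = 0.0915) or upper quartiles (-0.25, adjusted p = 0.0527), nor without WT TSA replicate 2 (adjusted p = 0.0598). Of 6 genes of the same complex and its partners, TSA lowered 5 in WT and 5 in TKO and raised 0. It lowered 25.9% and 27.9% of all tested genes. The medians of the 6 were -0.53 and -0.53. Senp3 (-0.76), Wdr18 (-0.74), Mdn1 (-0.57) and Pelp1 (-0.48) led in WT. Under library totals 4 of 6 were still called lower in WT. For genotype in DMSO, edgeR called 0 of 6, against 20.4% of all tested genes. Exons of Tex10 overlap those of Invs on the opposite strand over 4.00% of their length, and those of Tex9 overlap Mns1 over 6.12%, and whether counting used strand is not given in the sources used here.

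Per kilobase of exon Tex10 was the highest member in WT DMSO, at 111, with Tex19.1 at 94.9, Tex30 at 31.9 and Tex261 at 28.5. In TKO TSA Tex19.1 led at 996, followed by Tex19.2 at 99.2, Tex10 at 91.6 and Tex15 at 63.3.

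Tex30 (chr1:44086617-44102388, minus strand) was at 34.6 and 46.0 with DMSO and 41.9 and 49.0 with TSA in the WT libraries, and at 41.0 and 42.2 with DMSO and 51.2 and 52.1 with TSA in the TKO libraries. Its 1 call, with both changes together, was 0.36 ± 0.14 (edgeR adjusted p = 0.041) and was lost without WT DMSO replicate 1 (0.16, adjusted p = 0.33), either TKO DMSO library (adjusted p = 0.0625 and 0.0616) or either TKO TSA library (adjusted p = 0.093 and 0.122). Tex261 (chr6:83770414-83775812, minus strand) was at 43.5 and 39.3 with DMSO and 44.6 and 48.2 with TSA in the WT libraries, and at 40.4 and 38.7 with DMSO and 47.5 and 52.0 with TSA in the TKO libraries. Only its rise with TSA in TKO was called (0.33 ± 0.11, adjusted p = 0.0215). It was lost without TKO TSA replicate 2 (0.26, adjusted p = 0.142) and without TKO DMSO replicate 1 or 2 (adjusted p = 0.0715 and 0.117). Tex9, at 24.1 to 30.3 over all libraries, and Tex26, at 0.291 to 1.10, were called in no comparison. With TSA in WT Tex26 was at 1.20 ± 0.50 (edgeR adjusted p = 0.0618), and the libraries did not overlap. That value was called under library totals and upper quartiles.

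**Figure D3:**
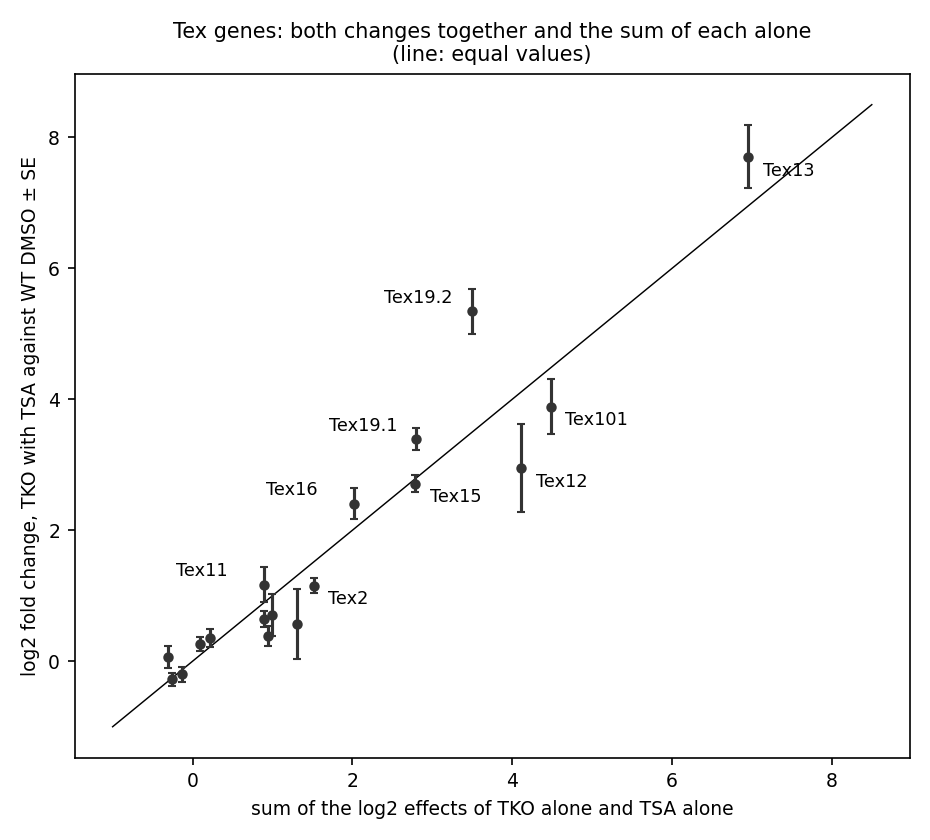
For the 18 tested Tex genes, the sum of the log2 changes of TKO alone and TSA alone (x axis) against the log2 change with both together ± SE (y axis), with a line of equal values. Tex19.2 lies farthest above the line, at 5.34 against a sum of 3.50, and Tex12 farthest below, at 2.95 against 4.11.

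The next comparison asked whether TSA acted differently in the 2 genotypes. By edgeR's adjusted p, 0 of the 18 members differed, against 1.35% of all tested genes, and DESeq2 also called 0. At an unadjusted p below 0.05 there were 4 of 18, against 14.5% of all tested genes. Tex19.2 was the closest: with both changes it was 40.6-fold above WT DMSO (5.34 ± 0.34), where the single changes summed to 3.50, a difference of 1.85 ± 0.48 (edgeR adjusted p = 0.0922). It passed when all genes with a count were tested (adjusted p = 0.00927), without WT TSA replicate 2 (adjusted p = 0.0454) and without TKO TSA replicate 1 (adjusted p = 0.0202). For Tex19.1 the difference was 0.59 ± 0.22 (adjusted p = 0.24), with 10.5-fold for both together. Tex14 (-0.56 ± 0.21, adjusted p = 0.259) and Tex2 (-0.36 ± 0.16, adjusted p = 0.33) were below the sum of their single changes. Tex15 was close to the sum, with a difference of -0.08 ± 0.17 and 6.55-fold for both together.

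The Spata genes, another set of 26 named for the testis (spermatogenesis associated), give a comparison picked by name in the same way. Of 16 tested, 0 were higher and 1 lower in TKO in DMSO (edgeR), where 7 of 18 Tex genes were higher and 1 lower. The median log2 fold change was -0.02 for Spata and 0.62 for Tex genes. With TSA in WT 5 Spata genes were higher and 0 lower, against 27.0% and 25.9% of all tested genes. For genotype in DMSO the shares of all tested genes were 9.63% and 10.7%. The difference between the 2 name groups was not tested.

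**Figure D4:**
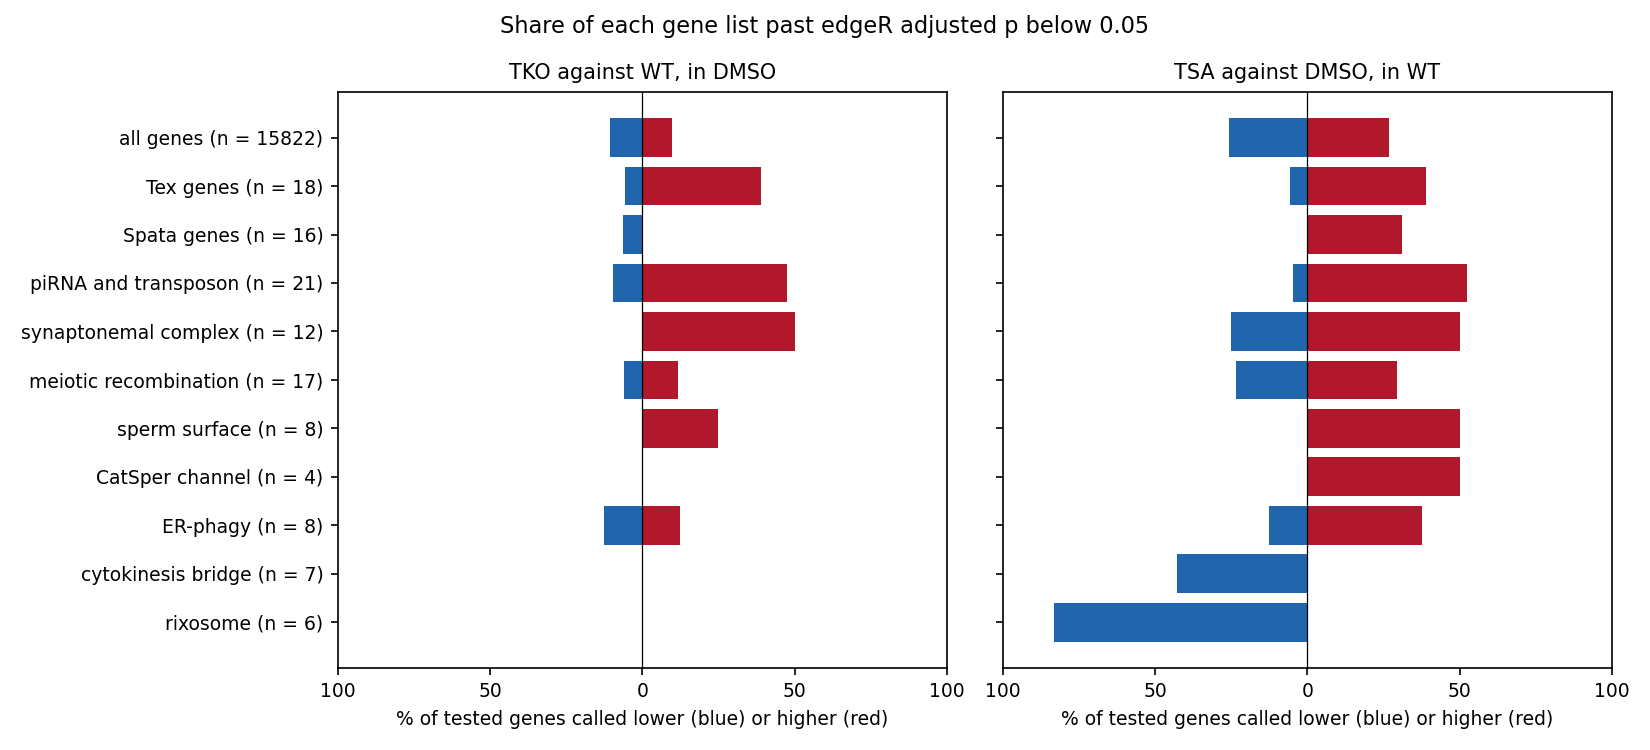
Percent of the tested genes of each list called higher (red, right) or lower (blue, left) in edgeR, for TKO against WT in DMSO and for TSA against DMSO in WT. In the first panel 38.9% of Tex genes were higher beside 9.63% of all genes, and in the second 38.9% beside 27.0%.

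CpG sites were counted for the 16 members that were both tested and matched. The windows of Tex2, with 41 CpG sites, and Tex12, with 26, belonged to genes higher in TKO, and those of Tex30, with 38, and Tex261, with 29, to genes with genotype values in DMSO of 0.05 and -0.07. The 6 matched members called higher in TKO in DMSO had 16 to 41 CpG sites, and Tex21, the lower one, had 6. Of the 16 members, 10 had 16 or more sites, and 4 of these were not called: Tex30, Tex261, Tex10 with 21 and Tex9 with 17. Among members with few sites, Tex19.2 with 2 and Tex16 with 0 were called with TSA and not with genotype in DMSO. Their genotype values there, 0.70 and 0.62, were close to those of Tex2 (0.71) and Tex14 (0.61), which were called. Under TSA both Tex19.2 and Tex16 were called higher in TKO. Tex13, with 13 sites, had a genotype value in DMSO of 2.30 that was not called.

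Searched on both strands, the NRF1 motif GCGCANGCG was present in 3 of 23 member windows (Tex19.1, Tex12 and Tex264) and in 6.25% of all RefSeq windows. It is nearly a palindrome, so both strands can match at overlapping bases, and windows are counted once. The E-box CACGTG was in 3 (7.15% of all), the ETS motif CCGGAAG in 3 (8.86%), the GC box GGGCGG in 9 (35.7%), the YY1 motif AANATGGC in 1 (6.05%) and the E2F motif GCGGGAA in 5 (4.6%). The E2F motif windows were those of Tex30, Tex14, Tex26, Tex12 and Tex9, genes of 2 classes. A match gives only the presence of these letters.

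**Figure D5:**
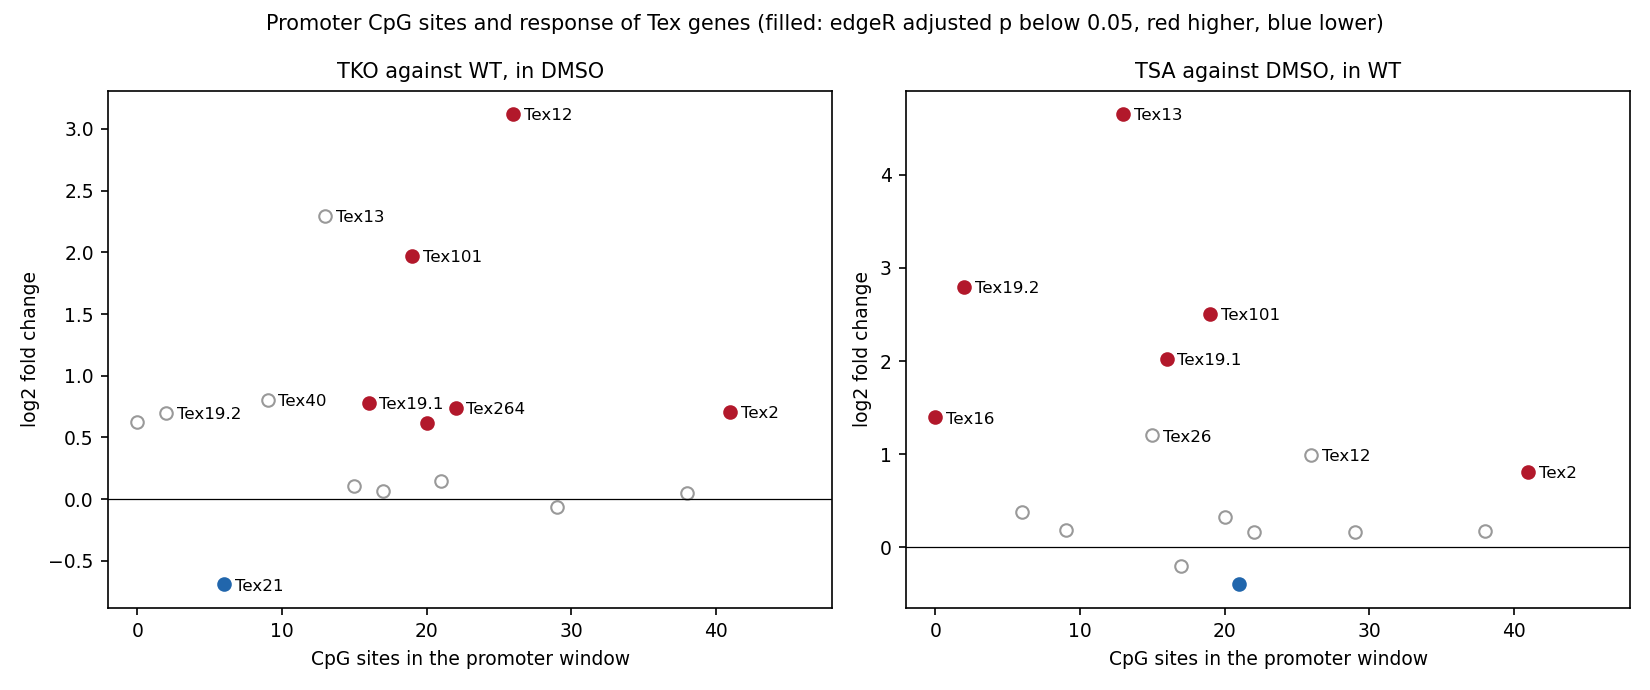
Number of CpG sites in the promoter window (250 bases before to 50 after the start site) against the log2 fold change for the 16 tested Tex genes with a RefSeq window; filled points passed edgeR's adjusted p below 0.05 (red higher, blue lower). On the left the filled red points lie at 16 sites or more, and on the right they run from 0 (Tex16) to 41 (Tex2).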

How the data were processed

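RNA was sequenced in 8 of the 126 samples of the series, and the other 118 are not analysed here. The submitters' processing notes name TopHat2 2.0.13, featureCounts 1.4.5-p1, edgeR 3.22.3 and the build mm10, without roles or order. The deposited table holds whole-number counts per gene and an exon length, and whether multi-mapping reads or strand were used in counting is not given in the sources used here. The library kit keeps strand, per the labels' protocols.

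Genes were filtered with filterByExpr and tested on the deposited counts in edgeR 4.0.16 (R 4.3.3) with TMM scaling and the quasi-likelihood test, 1 mean per group, 4 residual degrees of freedom, two-sided, adjusted by Benjamini-Hochberg over 15822 genes. Libraries of a group varied with a common coefficient of 10.3% beyond counting noise. Standard errors are the log2 fold change over the root of F. The script was tested on simulated data. Alternatives were other scalings, filters and thresholds, DESeq2 1.42.0, the replicate block and each library left out. Exact permutation of 2 against 2 libraries cannot go below 0.333, so single values have no such test.

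The members, gene lists and markers were chosen with earlier results of these data known. Values in every library are given for members called in at least 1 comparison with a group mean of at least 1 CPM, and at most 4 genes of a companion list are named, by largest change.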

Additional observations from a re-analysis of the deposited data

How the results depend on the processing

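Across all alternatives no called change turned its direction. Scaling to library totals gave 14 members for TSA in WT (8 as reported), where calls among all genes went from 8358 to 8245. The classes were then 1 genotype only, 7 TSA only, 7 both and 3 neither, and upper quartile factors gave 2 for genotype only. Testing all genes with a count gave 13 for neither, since more members were then tested, and 1 for the interaction (Tex19.2). An adjusted p below 0.01 gave 2 for genotype only and 2 for both, and a 2-fold minimum gave 1 for genotype only, 1 for both and 11 for neither. Classing by average effects over both treatments and both genotypes, chosen after seeing the data, gave 8 for both and 1 for neither. By that classing 22.7% of all tested genes fell in both and 21.8% in neither. Such shares are not given for the other class counts in this paragraph. With each library left out in turn, members called ranged from 7 to 11 for TSA in WT, 8 to 12 for TSA in TKO, 2 to 9 for TKO in DMSO, 3 to 9 for TKO in TSA, 10 to 13 for both together and 0 to 1 for the interaction. The classes then ranged from 1 to 4 for genotype only, 2 to 7 for TSA only, 1 to 5 for both and 3 to 9 for neither. The replicate numbers are not said to mark a shared culture or day, and 2 numbers cannot settle it (deviations of same-numbered libraries correlated at 0.0673 to 0.325). With the replicate block 7 members were called for both genotype in DMSO and TSA in WT. Tex14, Tex19.2 and Tex13 there joined Tex2, Tex19.1, Tex101 and Tex15. The block also gave 2 for the interaction, Tex19.2 (edgeR adjusted p = 0.00161) and Tex19.1 (adjusted p = 0.0305). Interaction calls among all genes went from 213 to 633 with it. Depth limits Tex12, Tex26 and the 10 members not tested.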
